A study of Mus musculus with 8 samples.

Results

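The secreted frizzled-related proteins (SFRPs) and Wif1 are extracellular antagonists that bind Wnt ligands, and their RNA was followed here in the palatal shelves of mouse embryos with and without the paired-box transcription factor Pax9. The 6 members are Sfrp1, Sfrp2, Sfrp4, Sfrp5, Frzb and Wif1. They were taken by name, and all 6 were found among the 19083 genes of the table. Poly(A)-selected RNA of the shelves at embryonic day 13.5 was sequenced in 8 C57BL/6 samples, each lysed on its own. By the genotype label, 4 were Pax9 null (Pax9-/-), 2 were heterozygotes (Pax9+/-) and 2 were wild type (Pax9+/+). The heterozygotes and wild types together were the 4 controls. The treatment label of all 8 reads N.A., so the drug named in the protocol text was not counted as given. The labels do not say how the null allele was made or which sex the samples were. They also do not say whether a sample is 1 embryo or whether samples shared a litter. A p-value here therefore sets a difference between groups against the spread of these samples. How far it holds for other embryos or litters is not known.

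SFRPs carry a cysteine-rich domain like that of the frizzled receptors, joined to a netrin-like domain, and bind Wnt proteins outside the cell. By sequence Sfrp1, Sfrp2 and Sfrp5 form a subgroup, and Frzb and Sfrp4 a further one. Wif1 has a Wnt-binding domain of its own type followed by EGF-like repeats. In the developing palate Wnt signals act in both the epithelium and the mesenchyme, and SFRPs are known from craniofacial mesenchyme and from cartilage.

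The promoters of 4 of the 6 members were in the RefSeq table of the GRCm38.p6 assembly, which shares its coordinates with mm10. Those of Sfrp2 (chr3:83766071-83766370, plus strand), Wif1 (chr10:121033754-121034053, plus strand) and Frzb (chr2:80447347-80447646, minus strand) are shown because Sfrp2 and Wif1 differed most between the genotypes and Frzb is an abundant member whose groups overlapped. Capitals mark matches on either strand to CTTTG, the core that TCF/LEF factors of the Wnt pathway bind.
Sfrp2: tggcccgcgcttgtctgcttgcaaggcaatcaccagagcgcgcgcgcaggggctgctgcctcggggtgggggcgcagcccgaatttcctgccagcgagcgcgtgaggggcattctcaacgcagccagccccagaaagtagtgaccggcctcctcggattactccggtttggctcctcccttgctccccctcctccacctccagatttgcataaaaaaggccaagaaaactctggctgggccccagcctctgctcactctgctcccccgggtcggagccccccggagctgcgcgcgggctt
Wif1: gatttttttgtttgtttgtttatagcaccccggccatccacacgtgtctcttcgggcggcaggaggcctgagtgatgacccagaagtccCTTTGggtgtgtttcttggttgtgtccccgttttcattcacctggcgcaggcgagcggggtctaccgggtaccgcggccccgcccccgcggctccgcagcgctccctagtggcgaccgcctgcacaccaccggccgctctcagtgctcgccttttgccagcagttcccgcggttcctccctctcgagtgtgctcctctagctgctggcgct
Frzb: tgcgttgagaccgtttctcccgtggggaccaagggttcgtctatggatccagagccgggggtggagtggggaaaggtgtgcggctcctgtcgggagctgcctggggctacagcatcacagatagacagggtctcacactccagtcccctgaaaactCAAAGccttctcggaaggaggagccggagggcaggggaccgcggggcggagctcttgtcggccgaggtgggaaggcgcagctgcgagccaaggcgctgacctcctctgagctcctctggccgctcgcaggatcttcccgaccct

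The CTTTG core occurred on the plus orientation of the Wif1 window, 161 bases before the start site that the window is set on. In the Frzb window it occurred on the reverse strand, 94 bases before that window's start site. For both genes this start site lies inside the gene span given below. The Frzb match lies inside its gene span as well. The Sfrp2 and Sfrp5 windows held no match. The core was held by 53.9% of all 32851 promoters, so its presence is a description of the letters only. GTCACGC, a core sequence of paired-domain sites, was in none of the 4 windows and in 2.09% of all promoters. The windows of the 4 members had a GC content of 61.3% to 66.0% and between 15 and 25 CpG dinucleotides, against medians of 52.7% and 7 over all promoters.

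Pax9 RNA, given first as a check of the labels, was at 7.19 to 10.3 FPKM in the null libraries and at 26.2 to 35.8 FPKM in the controls, lower by limma (log2 change −1.68, SE 0.13, adjusted p = 0.000556). FPKM are fragment counts scaled to the length of the gene and the size of the library. The low values of each gene moved in whole steps, from which totals of 37141953 to 51309588 reads per library were recovered. The largest component of variation within null and control, with 46.3% of the variance, separated the first 4 from the last 4 library columns of the table. Its scores were 0.293 to 0.412 in the first 4 and −0.51 to −0.12 in the last 4. Null 1, null 2 and the wild types stand in the first 4 columns, and null 3, null 4 and the heterozygotes in the last 4, so the heterozygotes and wild types share no column position and are linked across it only through the nulls. Each title also carries a number, 56 for the libraries numbered 1 of each genotype and null 3, and 44 for the others, whose meaning the labels do not give. In bulk tissue fewer cells of a type and less RNA per cell cannot be told apart.

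The levels of the 6 members were far apart. Sfrp2 ranked 37 of 19083 genes by mean FPKM, Frzb ranked 406 and Sfrp1 ranked 754. Wif1 ranked 11754, Sfrp5 14263 and Sfrp4 16078. Since FPKM are per length, these levels can be compared between genes. Sfrp2 alone made up 67.1% to 71.6% of the summed FPKM of the 6 genes in the null libraries and 72.5% to 74.9% in the controls. Frzb exceeded Sfrp1 in all 8 libraries, by 1.36 to 1.62 times in null and 1.1 to 1.56 times in controls. Wif1 exceeded Sfrp5 within every library, although their ranges over libraries overlapped, and Sfrp5 and Sfrp4 were both at 0.184 FPKM in null 4.

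Sfrp2, an abundant SFRP of craniofacial mesenchyme, was the member that fell past the threshold. It stood at 300, 367, 324 and 318 FPKM in nulls 1 to 4, against 439 and 445 in heterozygotes 1 and 2 and 442 and 432 in wild types 1 and 2. All 4 null values lay below all 4 controls, and the heterozygotes and wild types interleaved. The null mean of 327 ± 28.3 FPKM was 74.5% of the control mean of 439 ± 5.74 FPKM (SD, n = 4 each). On the log2(FPKM + 0.5) scale this was a change of −0.43 (SE 0.06, 95% confidence interval −0.57 to −0.28, limma adjusted p = 0.0303). Each value rested on between 25466 and 43730 reads, whose counting error is under the spread between libraries. Without the filter on low genes the adjusted p was 0.067, and in the 8 fits that left out 1 library it was 0.019 without null 2 and between 0.073 and 0.115 without any other library. The log2 change in those 8 fits lay between −0.48 and −0.39.

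The Sfrp2 gene (ENSMUSG00000027996) spans 83766321 to 83774316 of chromosome 3, plus strand of mm10, with 3 exons in its longest transcript. Of its exon bases 16.1% overlap Gm26771, a gene on the other strand, and the kit does not mark the strand. Gm26771 itself was listed at 0.857 to 1.49 FPKM over the 8 libraries, so it was low beside Sfrp2.

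Wif1, the Wnt inhibitory factor, had the lowest ratio of null to control among the 4 tested members. Nulls 1 to 4 had 1.37, 1.60, 1.48 and 0.932 FPKM, against 2.48 and 1.90 in heterozygotes 1 and 2 and 3.32 and 2.95 in wild types 1 and 2. The genotypes were ordered without overlap, with every null below both heterozygotes and both heterozygotes below both wild types. That order, from null up to wild type, was found in 131 of 13600 tested genes or 0.963%. The null mean was 1.34 ± 0.29 FPKM and the control mean 2.66 ± 0.61 FPKM (SD, n = 4 each), a ratio of 50.4%. The log2 change of −0.77 (SE 0.17, interval −1.15 to −0.40) did not pass (limma, adjusted p = 0.128). With the column position (first 4 against last 4) as a block it passed, at an adjusted p of 0.0295. The values rest on 84 to 184 reads in null libraries and 178 to 370 in controls, so counting error alone gave a mean coefficient of variation of 8.6% in null and 6.32% in controls, where the observed ones were 21.6% and 22.9%. Wif1 spans 121033960 to 121100650 on chromosome 10, plus strand, with 10 exons in its longest transcript and no exon base shared with a further gene.

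Sfrp1, a close relative of Sfrp2 with the same type of Wnt-binding domain, was slightly lower in each null library. Its levels were 51.3, 60.7, 57.5 and 58.9 FPKM in nulls 1 to 4, against 64.9 and 71.6 in heterozygotes 1 and 2 and 63.9 and 66.6 in wild types 1 and 2. The groups did not overlap, with null 2 and wild type 1 nearest to each other. The means were 57.1 ± 4.05 FPKM in null and 66.7 ± 3.39 FPKM in controls (SD, n = 4 each). The log2 change of −0.22 (SE 0.06, interval −0.37 to −0.08) did not pass (limma, adjusted p = 0.302). With column position as a block the adjusted p was 0.0953, and with column position and title number both as blocks, a fit added after the values were seen, it was 0.0284. Sfrp1 (chromosome 8, 23411502 to 23449632, plus strand) has 3 exons and shares no exon base.

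Frzb, an SFRP first known from cartilage, did not separate the genotypes. The nulls 1 to 4 stood at 79.3, 82.4, 90.0 and 95.6 FPKM, against 97.1 and 93.8 in heterozygotes 1 and 2 and 99.8 and 73.1 in wild types 1 and 2. Wild type 2 was the lowest of all 8 libraries and wild type 1 the highest. The null mean was 86.8 ± 7.4 FPKM and the control mean 91.0 ± 12.1 FPKM (SD, n = 4 each), with a log2 change of −0.06 and an interval from −0.29 to 0.17 (limma, adjusted p = 0.994). A fall as large as the estimate for Sfrp2 lies outside that interval. The gene spans 80411970 to 80447625 of chromosome 2, minus strand, with 6 exons in its longest transcript.

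Sfrp5 and Sfrp4 were near the lower end of the table and did not pass the filter of at least 1 FPKM in 2 or more libraries, so they were left out of the fit. Sfrp5, known from foregut and fat, was at 0.409, 0.638, 0.656 and 0.184 FPKM in nulls 1 to 4, against 0.325 and 0.383 in the heterozygotes and 0.504 and 1.76 in the wild types. The groups overlapped, and the control mean rested on wild type 2 with 128 reads, where the other controls had 24 to 44 (exact two-sided permutation test of the means, p = 0.714, smallest possible 0.0286). Sfrp4, known from bone, was at 0.233, 0.3, 0.222 and 0.184 FPKM in nulls 1 to 4, against 0.0733 and 0.192 in the heterozygotes and 0.397 and 0.373 in the wild types. The null values lay between the heterozygotes and the wild types apart from an overlap with heterozygote 2 (exact permutation p = 0.8). These values rest on 12 to 20 reads in null libraries and 5 to 32 in controls. Its FPKM were scaled to 1756 bases, where the exons of the gene in GENCODE M21 cover 4179. Sfrp5 lies on chromosome 19 (42197971 to 42202252, minus strand) and Sfrp4 on chromosome 13 (19623104 to 19632994, plus strand).

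**Figure D1:**
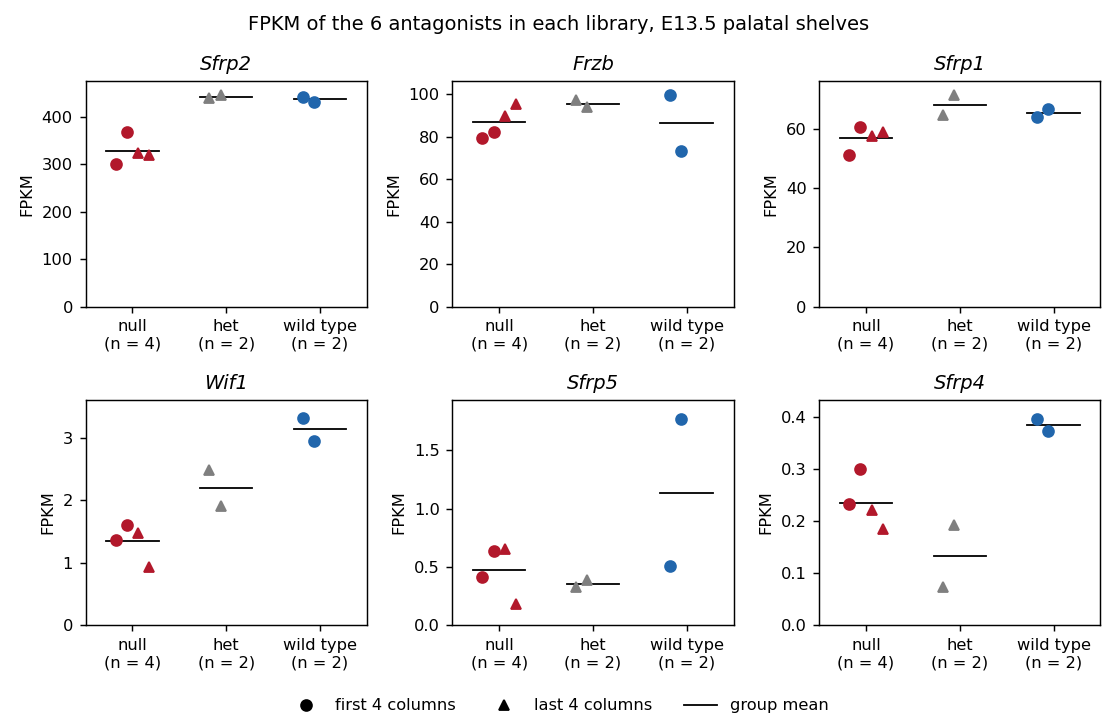
FPKM of each member in each library (y axis, linear from 0, a scale per panel) by genotype, with null left of heterozygote and wild type; points are libraries, circles and triangles the first and last 4 columns of the table, and lines group means. Sfrp2 lies between 300 and 367 FPKM in null and 432 and 445 in controls, while the groups of Frzb, Sfrp5 and Sfrp4 overlap.

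Of the 4 tested members, 1 fell, 0 rose and 3 did not pass, where 57 of all 13600 tested genes or 0.419% were called in either direction and 26 or 0.191% were called lower. In 3 members, Sfrp2, Sfrp1 and Wif1, the null values lay wholly below the controls, a pattern found in 449 tested genes or 3.3%. The median log2 change of the 4 was −0.33 and that of all tested genes −0.01. Summed over all 6 members, the FPKM was 473 ± 32.7 in null and 601 ± 16.6 in controls (SD, n = 4 each), and the ranges of 432 to 512 and 577 to 613 did not overlap. Most of that sum is Sfrp2. The ratio of Sfrp2 to Sfrp1 was 5.41 to 6.05 in null and 6.22 to 6.91 in controls, without overlap. The ratio of Sfrp2 to Frzb was 3.78, 4.46, 3.61 and 3.33 in nulls 1 to 4, against 4.52 and 4.75 in the heterozygotes and 4.43 and 5.91 in the wild types, with null 2 just above wild type 1.

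The column position and the title number cross the genotypes so that each combination of them holds 1 null and 1 control library. The combinations were null 1 with wild type 1, null 2 with wild type 2, null 3 with heterozygote 1 and null 4 with heterozygote 2, and nothing in the labels says that these samples were paired. Sfrp2 in null was 67.8%, 85.0%, 74.0% and 71.5% of its control in that order. Wif1 was at 41.2%, 54.2%, 59.5% and 48.9%, and Sfrp1 at 80.3%, 91.2%, 88.7% and 82.3%. These 3 members were lower in null in all 4 combinations, as were 2415 of 13600 tested genes or 17.8%. Frzb was at 79.4%, 113%, 92.6% and 102%, below its control in 2 of 4. With column position as a block 176 genes or 1.29% were called, Sfrp2 (adjusted p = 0.0169) and Wif1 among them, and with both blocks 417 genes or 3.07%, with Sfrp2 (0.0151), Wif1 (0.0178) and Sfrp1 among them. The controls of the first 4 columns are wild types and those of the last 4 are heterozygotes. A difference between the column positions is therefore also a difference between control genotypes. In the first 4 columns alone the log2 change of Sfrp2 was −0.40 and in the last 4 it was −0.46. For Wif1 they were −0.87 and −0.67, for Sfrp1 −0.22 and −0.23 and for Frzb −0.08 and −0.04. Within title number 44 the changes of Sfrp2, Wif1, Sfrp1 and Frzb were −0.36, −0.73, −0.21 and 0.10, and within 56 they were −0.50, −0.81, −0.24 and −0.22. None of these subsets of 4 libraries gave an adjusted p under the threshold for a member. The difference of the null effect between the title numbers or the column positions did not pass for any of the 4 either (limma interaction, each adjusted p 1.0), with 95% intervals as wide as −0.91 to 0.75 for Wif1.

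**Figure D2:**
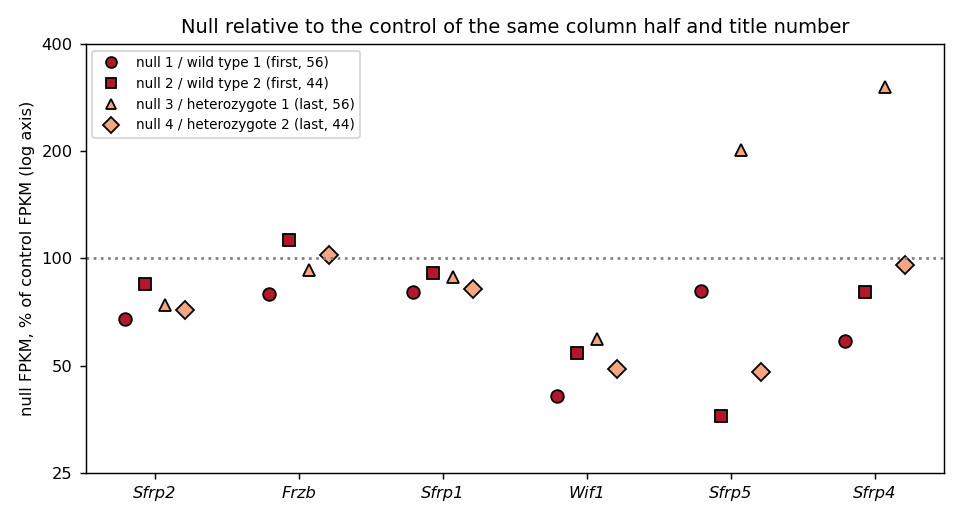
Null FPKM as a percentage of the FPKM of the control that shares its column position and title number (y axis, logarithmic), 4 combinations per member. All 4 points lie below 100% for Sfrp2, Sfrp1 and Wif1, and points lie on both sides of 100% for Frzb, Sfrp5 and Sfrp4.

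The pooled control combined the heterozygotes with the wild types, and a fit with 3 groups set them apart. Null against wild type called 52 genes or 0.382%, and null against heterozygote 11 or 0.0809%, and no member was among either. These comparisons share the null libraries. Sfrp2 had a log2 change of −0.42 against wild type (adjusted p = 0.104) and −0.44 against heterozygote (0.176), each with a standard error of 0.08. For Wif1 the changes were −0.99 against wild type (0.0652) and −0.55 against heterozygote (0.589), with a standard error of 0.17. Sfrp1 changed by −0.19 and −0.26 (0.408 and 0.587) and Frzb by 0.02 and −0.14 (0.955 and 0.784) against wild type and heterozygote in that order.

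Heterozygote against wild type called 0 genes or 0.0% by limma, with 1568 at an unadjusted p under 0.05. Sfrp2 was 101% of its wild-type mean in the heterozygotes, a log2 difference of 0.02 with an interval from −0.20 to 0.23, and Sfrp1 105% with 0.06 and an interval from −0.14 to 0.26. Wif1 was at 2.19 ± 0.41 FPKM in heterozygotes and 3.13 ± 0.26 FPKM in wild types (SD, n = 2 each), a log2 difference of −0.44 with an interval from −0.88 to 0.00385 (adjusted p = 0.377). Since null libraries stand in both column positions, that position can be held constant, and the difference of Wif1 was then −0.20 with an interval from −0.81 to 0.40. This is the same contrast as the column-position difference of the null effect above, with its sign turned, so it is no separate result.

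**Figure D3:**
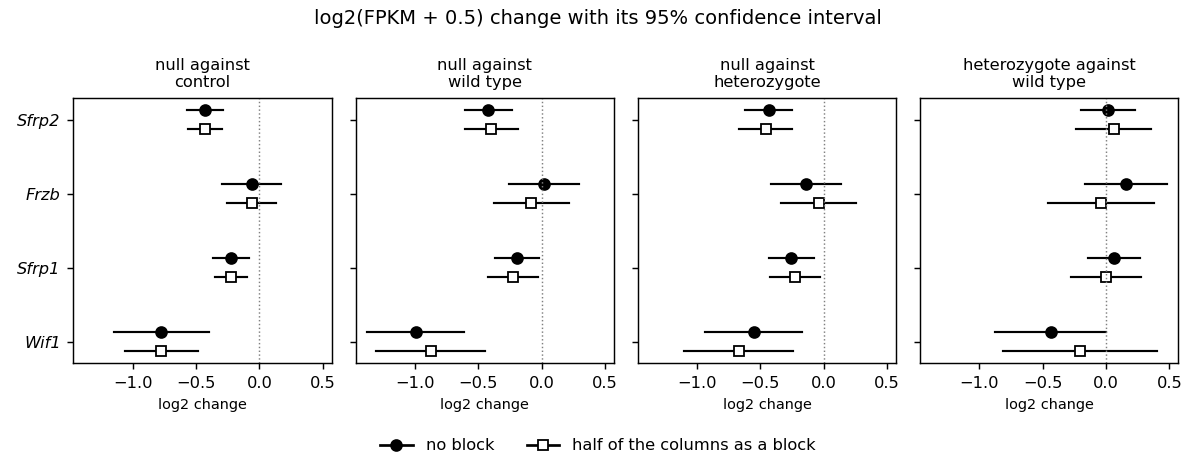
log2 change of the 4 tested members (x axis, log2(FPKM + 0.5) scale) with 95% confidence intervals in 4 comparisons; filled circles are the fits without a block, open squares those with column position as a block. The intervals of Sfrp2, Wif1 and Sfrp1 lie below 0 in each comparison of null, and those of Frzb include 0 in all 4. The intervals are not adjusted for the number of genes tested.

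In the 5 lists of further antagonists, ligands, receptors, targets and SFRP partners, 59 genes were tested, 0 rose and 1 fell, where 0.419% of all tested genes were called in either direction. That gene was Shisa2, a relative of a Xenopus protein that holds frizzled receptors back in the cell, at 36.0 ± 2.02 FPKM in null and 48.1 ± 2.85 FPKM in controls (SD, n = 4 each), a log2 change of −0.41 (SE 0.06, limma adjusted p = 0.0257). Of the 15 tested antagonists outside the SFRP family, 2 lay wholly below the controls in null, Shisa2 and Dkk3, and 1 wholly above, Dkk1. Dkk1 was at 2.67 to 4.25 FPKM in null and 1.40 to 2.28 FPKM in controls. Its log2 change of 0.68 did not pass (limma, adjusted p = 0.158). Over all tested genes 3.3% lay wholly below, and the share wholly above was not counted. The other 14 of the 15 antagonists did not pass, and their list had a median of −0.02. Igfbp4, an insulin-like growth factor binding protein that can also block Wnt receptors, is the most abundant of them and stood at 179 FPKM in null and 181 FPKM in controls.

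Of the Wnt ligands that SFRPs and Wif1 bind, 10 of 16 measured genes were tested and 0 passed. Null lay wholly below the controls in 1 of the 10, Wnt5a, and wholly above them in 1, Wnt2, where 3.3% of all tested genes lay wholly below. Wnt5a, a ligand that signals largely without beta-catenin, was the most abundant, at 14.9 ± 1.09 FPKM in null and 17.7 ± 1.37 FPKM in controls (SD, n = 4 each; log2 change −0.25, adjusted p = 0.344), and Wnt5b was at 7.32 and 7.46 FPKM. The ligands summed to 45.7 to 64.5 FPKM in null libraries and 46.3 to 67.7 FPKM in controls, which overlap. The 6 antagonists summed to 6.71, 9.61, 8.71 and 10.4 times the ligands in nulls 1 to 4, against 10.6 and 13.2 times in the heterozygotes and 9.01 and 9.77 times in the wild types. These ratios overlapped, null 4 being above both wild types, which stand in the other column position. Against the control of the same column position and title number, the ratio was lower in null in all 4 combinations, though null 2 (9.61) was close to wild type 2 (9.77). Most of the antagonist sum is Sfrp2, itself lower in null in all 4, so this is no separate result.

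All 16 receptor genes were tested, 0 passed and their median was −0.04. In 2 of the 16 null lay wholly below the controls, as in 3.3% of all tested genes. Fzd2, a frizzled receptor, averaged 96.3 FPKM in null against 96.0 in controls, and Ptk7, a co-receptor of planar polarity signalling, at 71.2 and 71.9. Of 13 tested targets of Wnt/beta-catenin signalling 0 passed, 9 were below 0 in point estimate and the median was −0.14. In 2 of the 13 null lay wholly below the controls. Ccnd1, which encodes cyclin D1, averaged 69.9 FPKM in null against 77.2 in controls, and Twist1 at 138 and 130. Of the proteinases and enhancers that SFRPs are known to interact with, 0 of 5 passed. Bmp1, the procollagen C-proteinase, averaged 93.8 FPKM in null against 87.6 in controls, and Adam10 at 39.9 and 39.5.

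**Figure D4:**
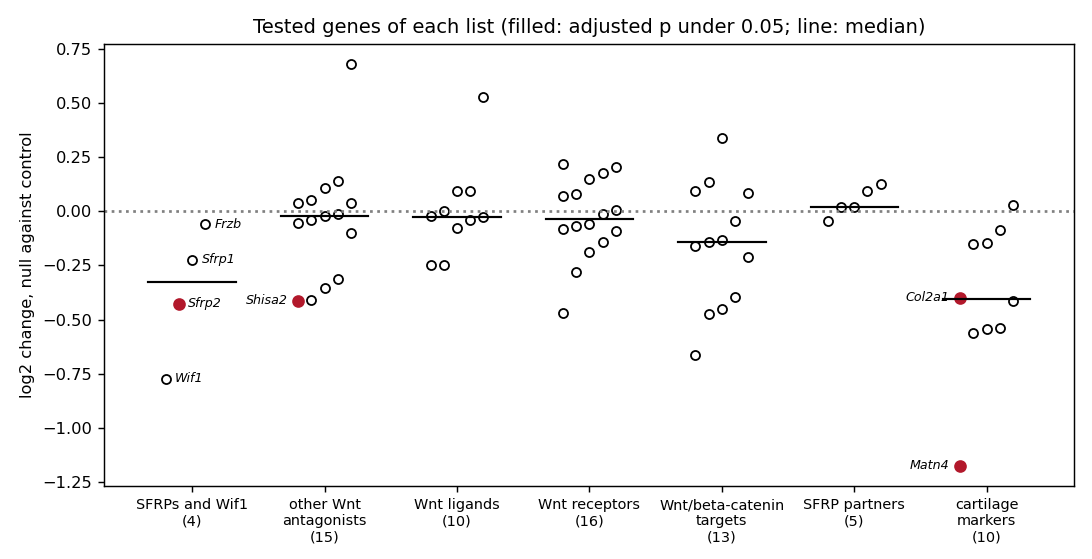
log2 change, null against control (y axis), of each tested gene in the members, 5 further lists of Wnt signalling and the cartilage markers, with the number tested under each name; filled points passed the adjusted threshold and lines are medians. Sfrp2 and Shisa2 are the 2 filled points of the Wnt lists, and the medians of the other antagonists, ligands, receptors and partners lie between −0.04 and 0.02. The median of the targets is −0.14.

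Of 14 cartilage markers 10 were tested, 2 fell, 0 rose and 8 did not pass, with a median of −0.41, where 0.191% of all tested genes were called lower. Col2a1, the main cartilage collagen, was at 85.3 ± 3.75 FPKM in null and 113 ± 8.97 FPKM in controls (SD, n = 4 each; log2 change −0.40, adjusted p = 0.0405), and Matn4, a matrix adaptor, at 2.10 ± 0.46 and 5.39 ± 1.24 FPKM (−1.18, adjusted p = 0.0263). The 14 markers summed to 161 to 182 FPKM in null libraries and 206 to 234 FPKM in controls, without overlap. None was at 0 in all libraries, and 4, Acan, Matn1, Matn3 and Comp, were under 1 FPKM in every library. Within null, null 4 had both the lowest cartilage sum and the lowest Wif1, and null 2 the highest of both, while Frzb in null 4 was the highest of the nulls. Null 1 had a higher cartilage sum than null 3 but a lower Wif1. Heterozygote 2 likewise had a higher sum than heterozygote 1 but a lower Wif1. The part of cartilage cells in the lower Sfrp2 and Wif1 was not tested.

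**Figure D5:**
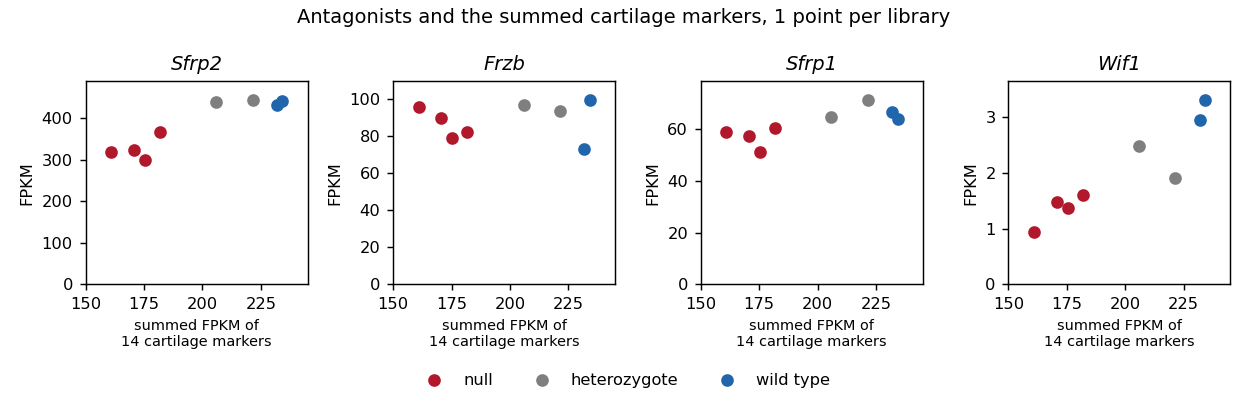
FPKM of the 4 tested members (y axis from 0) against the summed FPKM of the 14 cartilage markers (x axis, which does not start at 0), 1 point per library, colored by genotype. The null libraries lie at 161 to 182 FPKM of cartilage markers and the controls at 206 to 234, and Wif1 goes from 0.932 FPKM in null 4 at the lowest sum to 3.32 in wild type 1 at the highest. Between these ends the order turns: Wif1 is at 1.48 FPKM in null 3 (sum 171) and 1.37 in null 1 (175). It is at 2.48 FPKM in heterozygote 1 (206) and 1.90 in heterozygote 2 (221).

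The mesenchymal markers that define the dissected tissue summed to 1297 to 1432 FPKM in null and 1156 to 1390 FPKM in controls, and of 10 tested Osr2 rose (160 FPKM in null, 96.0 in controls) and Msx1 fell (33.5 and 78.2), where 0.419% of all tested genes were called. Col3a1 and Barx1, their most abundant genes, averaged 289 FPKM in null against 259 in controls, and 328 against 269. Of 6 tested osteogenic markers 1 fell, Spp1, which encodes osteopontin, at 2.19 ± 0.40 FPKM in null and 4.09 ± 0.29 FPKM in controls (SD, n = 4 each, adjusted p = 0.0239). Dlx5, 1 of their 2 most abundant genes, lay wholly above the controls in null, averaging 18.7 FPKM against 10.4. Its log2 change of 0.82 did not pass (limma, adjusted p = 0.135). Col1a1, the other, averaged 149 FPKM in null against 147 in controls. Of the 6 osteogenic markers 3 were above 0 and 3 below, with a median of −0.0493. Of 7 anterior palate markers 1 fell, Msx1, and of 5 posterior ones 0 passed. The anterior markers summed to 149 to 165 FPKM in null and 186 to 229 FPKM in controls, without overlap. Msx1 is the called gene in that sum, while Shox2, the other of its 2 most abundant, averaged 51.1 FPKM in null against 43.6 in controls. Of the 7 anterior markers 2 were above 0 and 5 below. The posterior markers summed to 396 to 434 FPKM in null and 336 to 383 FPKM in controls, also without overlap. Barx1 is the most abundant of them, at the 328 and 269 FPKM given above, and of the 5 markers 3 were above 0 and 2 below. The median log2 changes of the 2 lists were −0.185 and 0.0269. No gene passed among 10 epithelial, 4 tooth germ, 10 muscle, 8 neuron, 7 Schwann, 8 endothelial, 8 red blood cell and 6 macrophage markers tested. Muscle markers summed to 94.2 to 392 FPKM in null and 82.9 to 260 FPKM in controls, and neuron markers to 17.5 to 114 and 23.2 to 120 FPKM, both overlapping and wide within each group. The log2 change was above 0 in all 10 muscle markers (median 0.78) and below 0 in all 8 neuron markers (median −0.53), none of which passed. Red blood cell markers summed to 1371 to 1621 FPKM in null and 1496 to 2315 FPKM in controls, with all 8 below 0 and a median of −0.30. The part of these tissues in the values of the members was not tested.

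The 3 tested genes most like each member were taken by Pearson correlation of log2(FPKM + 0.5) over the 8 libraries, which share the difference between genotypes and the column position. For Sfrp2 they were Spp1 (r = 0.985), Jpt2 (0.982) and Naa38 (0.974). For Wif1 they were the adaptor gene Gab1 (0.990), Dkk3 (0.987), a relative of the Dickkopf antagonists, and the cartilage gene Matn4 (0.986). After the means of null and control were removed, r was 0.866 for Spp1 with Sfrp2 and 0.978 for Matn4 with Wif1. Without the 2 libraries farthest from the median it was 0.976 and 0.973. These genes were picked for a high r over the same libraries, so these values are no separate result. For Sfrp1 the nearest were Mrpl40 (0.988), Dab1 (0.970) and Arl2bp (0.968), and for Frzb Sco1 (0.959), Lrr1 (0.949) and Zfp830 (0.948). With the means of null and control removed, r was similarly high here, at 0.961 for Mrpl40 with Sfrp1 and 0.957 for Sco1 with Frzb. Among the members, Sfrp2 had an r of 0.91 with Sfrp1 and 0.85 with Wif1, and 0.707 and 0.239 after the group means were removed. Frzb had an r of 0.249 with Sfrp1, 0.219 with Sfrp2 and 0.00554 with Wif1.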

How the data were processed

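The authors deposited FPKM values of 19083 Ensembl genes in 8 libraries, and 0 columns belonged to other samples. Per the submitters' processing notes, reads were aligned to mm10 with Novoalign 2.08.03, and the notes also list DESeq2 without a version. How reads were counted, and how genes were chosen for the table, is not given in the sources used here. Per the labels' protocols, libraries were made with the TruSeq RNA kit v2 after oligo(dT) selection, which does not mark strand.

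Symbols and positions came from GENCODE M21 (18752 identifiers matched). Whole reads were recovered for 19055 genes within a tolerance of 0.002 of a read. Genes with at least 1 FPKM in 2 or more libraries (13600) entered limma 3.58.1 (R 4.3.3) on the log2(FPKM + 0.5) scale, with eBayes letting the variance follow the mean. Two-sided p-values were adjusted over all of them by Benjamini-Hochberg, with calls under 0.05. This scale understates the change of low genes. The fit was tested on simulated data. Summaries used Python 3.11.15 and pandas 2.3.3, and plots matplotlib 3.10.9. The alternatives were other pseudocounts, filters and scaling, blocks for title number and column position, subsets and leave-outs. Named are the members, the called genes of each list and the 3 genes most correlated with each tested member. The 2 most abundant genes are named for the further Wnt lists and for the mesenchymal, osteogenic and anterior palate markers. For the other lists 1 or both of them are left out. Some further genes, such as Dkk1 and Wnt2, are named as well. The members and lists were chosen with earlier results of these data known.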

Additional observations from a re-analysis of the deposited data

Results flagged for a closer look

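Sfrp5 in wild type 2 stood apart from the other controls, at 1.76 FPKM from 128 reads, where they had 0.325 to 0.504 FPKM. Of 12 groups of 4 libraries examined this way (6 members in null and in control), it was the 1 in which a library lay this far from the rest. The control group holds heterozygotes and wild types. How often chance would give 1 such library in 12 groups was not tested.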

How the results depend on the processing

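Sfrp1, Sfrp2 and Wif1 kept a negative log2 change under every alternative run, over ranges of −0.25 to −0.17, −0.50 to −0.36 and −0.93 to −0.64. Sfrp2 missed the threshold without a filter (−0.43), in title number 44 (−0.36) or 56 (−0.50) alone, in the first (−0.40) or last (−0.46) 4 columns alone, and in 7 of 8 leave-outs, which ranged from −0.48 to −0.39. Subsets and leave-outs have fewer libraries. Wif1 passed with column position as a block and with both blocks (−0.77), and Sfrp1 with both blocks (−0.22). Wif1 has no value at a mean of at least 5 FPKM, which it does not reach. Frzb turned to 0.10 in title number 44. Sfrp4 turned to 0.0088 with a pseudocount of 0.1, 0.021 in title number 56 and 0.16 in the last 4 columns, with leave-outs from −0.15 to 0.063. Sfrp5 turned to 0.17 and 0.060 in those subsets, with leave-outs from −0.41 to 0.078. Calls of null against control were 176 with column position as a block, 417 with both blocks (chosen after seeing the data), 119 without the GC trend, 35 at a mean of at least 5 FPKM, 0 and 4 in title numbers 44 and 56, 2 and 3 in the first and last 4 columns, and 16 to 52 in leave-outs, against 57. Null against wild type gave 24 and 34 with those blocks and 3 to 53 in leave-outs, null against heterozygote 0 to 14, and heterozygote against wild type 0 to 1. The cause of these shifts was not tested. Sfrp4 rests on 5 to 32 reads per library and Sfrp5 on 13 to 128.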

Other observations

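The control libraries agreed closely on Sfrp2, with a coefficient of variation of 1.31%, where the counting error of its reads averaged 0.513%. In null it was 8.65%. Of 325 tested genes with a mean of at least 100 FPKM, 6 including Sfrp2 had a control coefficient of variation at or below 1.31%, and the median was 6.55% in controls and 6.89% in null. Sfrp2 was the 1 gene of these 325 called lower in null, and 18 of them had null values wholly below the controls.

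The FPKM of Sfrp4 were scaled to a length of 1756 bases, recovered from the whole-read steps, while the GENCODE M21 exons of the gene cover 4179 bases. The lengths behind the other 5 members equal their exon unions in that release, for example 2153 bases for Sfrp2 and 2427 for Wif1.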
